A study of Mus musculus with 6 samples.

Results

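The genes examined were 10 transcription factors of the forming joint and of cartilage, *Osr1*, *Osr2*, *Barx1*, *Barx2*, *Erg*, *Nkx3-2*, *Trps1*, *Foxc1*, *Foxc2* and *Nfatc1*. They were chosen by name, and all 10 were found by Ensembl identifier among the 22032 genes of the deposited mouse matrix. RNA-seq was measured in cartilage chondrocytes sorted for BMPR1B, a bone morphogenetic protein receptor, with 3 embryonic and 3 adult biological replicates. The embryonic cells came from E16.5 embryos per the study's methods, where the sample labels give 16.5 weeks, and were sorted as lineage-negative, ALP- and BMPR1B+. The adult cells came from male B6 animals of 2 months and were sorted as CD31-, CD45-, Ter119-, ALP- and BMPR1B+. The sex of the embryos and the number of animals behind each sample are not given in the sources used here.

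A synovial joint begins as an interzone, a band of flattened cells that crosses the cartilage template, switches off the chondrocyte program and produces signals such as GDF5. OSR1, OSR2, BARX1 and ERG are known from this region or from the articular cartilage that derives from it. The other side of the same process is the growth plate, where NKX3-2, TRPS1 and the FOXC factors control how fast chondrocytes divide and enlarge. NFATC1 carries calcium signals to the nucleus through the phosphatase calcineurin, is known from articular cartilage progenitors and is also the central factor of osteoclast formation.

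Between the stages, *Osr2*, *Barx2*, *Nkx3-2*, *Osr1*, *Erg* and *Nfatc1* fell from the embryonic to the adult samples, *Trps1* rose, and *Barx1*, *Foxc1* and *Foxc2* did not pass the test. *Osr2* had 8.30-fold less TPM in the adult mean and the lowest log2 fold change on the log2(TPM + 1) scale. With a pseudocount of 0.1 in place of 1, *Barx2* and *Nkx3-2* lay below it, at -4.18 and -3.79 against -3.09. TPM is an abundance scaled to transcript length and to the sample's total, so levels of different genes can be compared. The test was limma on log2(TPM + 1) with Benjamini-Hochberg adjustment over the 13125 genes that averaged 1 TPM or more, and the threshold was an adjusted p under 0.05. Of all tested genes 45.3% passed it, against 7 of the 10 members. As lower in the adult samples 21.4% of all tested genes passed, against 6 of the 10, and as higher 23.9%, against 1 of the 10. The ranges of the stages did not overlap in 56.5% of all tested genes, with the adult range lower in 25.9%, against 7 and 6 of the 10 members. The median log2 fold change was -1.31 over the members and 0.16 over all tested genes.

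The identity of the cells was read from chondrocyte markers. *Col2a1* was at 14154 to 15251 TPM in the embryonic and 3166 to 7084 TPM among adult ones, and *Sox9*, the master factor of the lineage, at 392 to 465 and 589 to 901 TPM. Of the 8 chondrocyte markers limma called *Sox9* and *Comp* higher and *Col2a1*, *Col9a1*, *Col11a2*, *Hapln1* and *Matn3* lower in the adult samples, and *Acan* was at 1018 to 1306 and 1265 to 2672 TPM. *Bmpr1b* itself was at 16.4 to 20.3 TPM among embryonic samples and at 4.51, 18.5 and 13.4 TPM among adult ones. Markers of other cells were read as the summed TPM of fixed lists. The 8 tendon and fibroblast markers summed to 9921 to 11652 TPM in the embryonic and 580 to 1319 TPM among adult ones, and limma called 5 of them lower and 0 higher. Most of the embryonic sum came from *Col1a1*, at 4862 to 5971 TPM, and *Col3a1*, at 4518 to 5122 TPM. Among adult samples these were at 170 to 637 and 148 to 395 TPM. The 8 skeletal muscle markers summed to at most 26.2 TPM in any sample and the 6 skin markers to at most 6.94 TPM, while the 6 erythroid markers reached 133 TPM in embryonic replicate 1. The 5 articular surface markers summed to 563 to 668 TPM and to 31181 to 37828 TPM, and the 8 osteoblast markers to 30.7 to 34.4 TPM and 33.2 to 148 TPM, in the same order of stages. Of the surface markers limma called 4 higher and 1, *Tppp3*, lower in the adult samples, where *Prg4* alone was at 23818 to 26392 TPM. Of the osteoblast markers it called 2 higher and 2 lower. In bulk samples, fewer cells of a type and less RNA per cell cannot be told apart.

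Because reads of 50 bases can be shared by near-identical genes, the coding sequences of the paralogs among the members were compared first. The stretch of 90 coding bases that was most alike is shown for each pair, from GENCODE release M21 on GRCm38, with the bases that differ between the paralogs in capitals.
Foxc1: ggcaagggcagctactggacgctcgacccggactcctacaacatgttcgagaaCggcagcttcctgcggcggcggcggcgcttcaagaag
Foxc2: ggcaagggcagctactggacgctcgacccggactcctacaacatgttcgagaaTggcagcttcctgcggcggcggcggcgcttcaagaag
Osr1: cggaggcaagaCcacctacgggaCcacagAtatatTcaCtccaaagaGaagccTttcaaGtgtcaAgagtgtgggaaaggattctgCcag
Osr2: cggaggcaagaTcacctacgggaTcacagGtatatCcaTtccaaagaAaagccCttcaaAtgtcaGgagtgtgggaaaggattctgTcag
Barx1: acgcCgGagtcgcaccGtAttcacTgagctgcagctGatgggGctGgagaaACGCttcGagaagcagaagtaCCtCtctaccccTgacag
Barx2: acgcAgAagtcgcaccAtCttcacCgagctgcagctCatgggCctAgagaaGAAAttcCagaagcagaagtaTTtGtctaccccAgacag
The forkhead genes differed at 1 of the 90 bases and shared an identical run of 53 bases, longer than a read. These stretches lie at chr13:31807646-31807735 on the plus strand for *Foxc1* and at chr8:121117032-121117121 on the plus strand for *Foxc2*, each within the gene's only exon. The odd-skipped genes differed at 10 bases, in stretches that cross an exon junction (chr12:9579765-9580550, exons 2 and 3, plus strand, for *Osr1*, and chr15:35300927-35301972, exons 1 and 2 of its longest coding transcript, plus strand, for *Osr2*). Their longest identical run, searched without gaps over the whole coding sequences, was 23 bases and lies outside the printed stretch. The *Barx* genes differed at 17 bases, in exon 2 of both (chr13:48665228-48665317, plus strand, and chr9:31858731-31858820, minus strand). Their longest identical run, searched in the same way over the whole coding sequences, was 17 bases and lies outside the printed stretch.

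Read sharing was then counted over all annotated transcripts of each member. Of the distinct windows of 50 bases in *Foxc1* 4 of 5795 also occurred in another gene, and of those in *Foxc2* 4 of 2676, in both cases the paralog. In *Osr1* it was 12 of 2015 windows, shared not with *Osr2* but with other annotated genes such as 1110032A03Rik and 1700110I01Rik. In the other 7 members it was 0. Annotated genes overlap 5 members. Of these, 1700022H16Rik on the strand opposite to *Osr1* was listed at 0 in all 6 samples, and Gm20388, which overlaps *Foxc2* on the same strand, was at 1.45 TPM in adult replicate 1 and at 0 elsewhere.

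**Figure D1:**
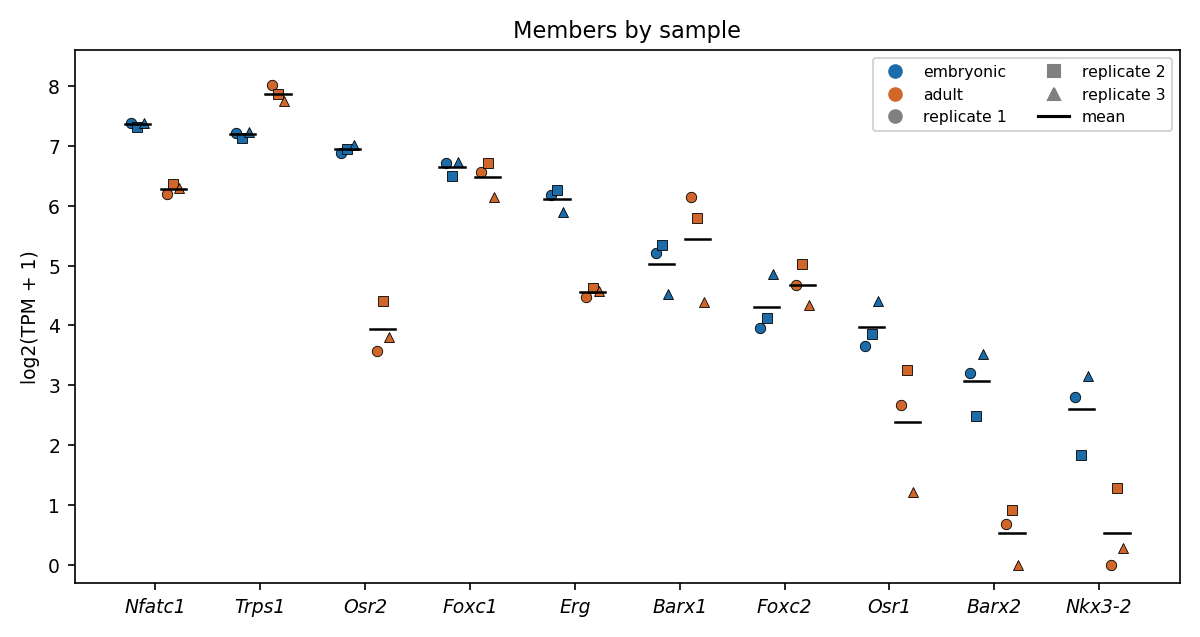
Level of each member on the log2(TPM + 1) scale (y axis) in the 3 embryonic (blue) and 3 adult (orange) samples, ordered by the embryonic mean, with the marker shape for the replicate and a bar for the mean. The adult samples of *Osr2* lie between 10.9 and 20.3 TPM, far below the embryonic ones, while those of *Foxc1* overlap the embryonic samples.

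The members spanned a wide range of levels. In the embryonic samples *Nfatc1* was highest, with a mean of 163 ± 4.68 TPM (SD, n = 3), followed by *Trps1*, *Osr2*, *Foxc1* and *Erg*, and each of these lay above the next with no overlap between samples. *Barx1*, *Foxc2* and *Osr1* came next, and each overlapped its neighbor in this order. *Barx2* and *Nkx3-2* were lowest, with overlapping values from 2.57 to 10.5 TPM. In the adult samples *Trps1* was highest and lay apart from all others. *Foxc1* and *Nfatc1* followed and overlapped. *Barx1* overlapped *Foxc2*, and *Foxc2* overlapped *Erg*. *Erg* lay just above *Osr2* with no overlap, and *Osr2* had gone from the third to the seventh place. At the low end *Osr1* and *Nkx3-2* overlapped, as did *Nkx3-2* and *Barx2*.

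Among the interzone factors, *Osr2* encodes an odd-skipped zinc finger protein that, together with OSR1, is needed for joints to form. It lies on chromosome 15 from 35296098 to 35303305. Its level was 117, 122 and 128 TPM among embryonic samples and 10.9, 20.3 and 13.0 TPM among adult ones. The stages did not overlap, and the gene went from the 92.8th to the 62.9th percentile of all genes in the matrix. The log2 fold change was -3.01 (with a standard error of 0.233, limma adjusted p = 2.48e-05).

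*Osr1*, on chromosome 12 from 9570116 to 9581500, was lower to begin with. It was at 11.7, 13.5 and 20.1 TPM among embryonic samples and at 5.34, 8.55 and 1.33 TPM among adult ones, so that the stages did not overlap but the adult samples spread widely. The log2 fold change was -1.59 with a 95% interval from -2.80 to -0.39 (limma adjusted p = 0.0369). This call did not hold without embryonic replicate 1, 2 or 3 (limma adjusted p = 0.0708, 0.0893 and 0.128) or without adult replicate 1 (adjusted p = 0.0544). Leaving out adult replicate 3 gave -1.01 (limma adjusted p = 0.0585).

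*Barx1* and *Barx2* encode homeobox proteins of the same family, of which BARX1 is known from joint-forming mesenchyme and BARX2 from limb mesenchyme, cartilage and muscle. *Barx2*, on chromosome 9 from 31846044 to 31913462, was at 8.27, 4.62 and 10.5 TPM among embryonic samples and at 0.605, 0.896 and 0 TPM among adult ones. No fold of TPM is given because of the 0. On the log2(TPM + 1) scale, which understates the change of low genes, it fell by 2.54 (limma adjusted p = 0.00313). The muscle markers summed to 21.8 to 26.2 TPM and to 1.73 to 15.0 TPM in the same order, with 0 of the 5 tested called in limma, and their part in the result was not tested. *Barx1*, on chromosome 13 from 48662998 to 48666507, was at 35.8, 39.8 and 22.1 TPM in the embryonic and 69.6, 54.2 and 20.1 TPM among adult ones. Adult replicates 1 and 2 lay above every embryonic sample and adult replicate 3 below every one. The log2 fold change of *Barx1* was 0.42 with a 95% interval from -0.56 to 1.39 (limma adjusted p = 0.457), and leaving out adult replicate 3 gave 0.94 (limma adjusted p = 0.0277).

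*Erg* encodes an ETS factor that is known to hold articular chondrocytes back from hypertrophy and that is also a marker of endothelium. It lies on chromosome 16 from 95359169 to 95586593. Its level was 71.3, 75.5 and 58.9 TPM among embryonic samples and 21.3, 23.8 and 22.9 TPM among adult ones, 3.02-fold less in the adult mean. The adult samples were tightly grouped and lay far below the embryonic ones (log2 fold change -1.55 with a standard error of 0.180, adjusted p in limma = 2.27e-04). The 8 endothelial markers together summed to 13.7, 17.4 and 47.3 TPM among embryonic samples and 7.77, 17.5 and 6.75 TPM among adult ones, less than *Erg* alone in each sample. Of the 5 markers tested, 1 was lower and 0 were higher in limma. The lower one was *Tek*, the receptor TIE2, which moved in the direction of *Erg*, from 9.21, 9.24 and 19.0 TPM to 0.121, 0.792 and 0.889 TPM (log2 fold change -3.04, limma adjusted p = 9.76e-04). *Pecam1* was at 1.29 to 1.75 TPM and at 2.79 to 6.87 TPM in the same order of stages, and VE-cadherin (*Cdh5*) was at 0.0507, 0 and 0.283 TPM among embryonic and 1.35, 2.36 and 0.0466 TPM among adult samples. The part of endothelial cells in the fall of *Erg* was not tested.

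These falls had the same direction as that of the list of tendon and fibroblast markers given above. Of that list, *Scx*, the factor that defines tendon progenitors, was at 44.2, 41.3 and 32.6 TPM among embryonic samples and at 0, 4.59 and 0 TPM among adult ones. *Pdgfra*, a receptor of fibroblasts and their progenitors, overlapped between the stages, at 210 to 286 TPM and at 145 to 258 TPM. No marker of this list was at 0 in all samples of a stage. The part of these cells in the result was not tested.

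The chondrocyte factors showed both directions. *Nkx3-2*, on chromosome 5 from 41761483 to 41764501, encodes a homeobox repressor that acts downstream of SHH in the somite and later keeps chondrocytes from maturing by repressing *Runx2*. It was at 5.98, 2.57 and 7.90 TPM among embryonic samples and at 0, 1.44 and 0.220 TPM among adult ones. The stages did not overlap, and the gene fell by 2.07 on the log2(TPM + 1) scale with a 95% interval from -3.34 to -0.81 (limma adjusted p = 0.0155). At these low levels the call did not hold without embryonic replicate 1 or 3 (limma adjusted p = 0.0592 and 0.0652).

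*Trps1* was the only member that rose in the fit to all 6 samples. It encodes a GATA-type zinc finger repressor that shapes chondrocyte proliferation and maturation and whose loss causes tricho-rhino-phalangeal syndrome, and it lies on chromosome 15 from 50654752 to 50890463. Its level was 147, 140 and 149 TPM among embryonic samples and 257, 232 and 214 TPM among adult ones. Every adult value was above every embryonic one (log2 fold change 0.68 with a standard error of 0.123, adjusted p in limma = 0.0024), a 1.61-fold higher mean. The summed TPM of 7 markers of hypertrophic chondrocytes moved the same way, from 596 to 843 in the embryonic samples to 3680 to 6042 among adult ones. Most of it was *Spp1*, at 553 to 714 TPM in the embryonic and 2368 to 4376 TPM in the adult samples. Of the 6 markers tested, 5 were higher in limma and 1, *Panx3*, was lower (log2 fold change -2.46, limma adjusted p = 0.0036). *Ihh*, which was not tested, went from 2.23, 0.597 and 1.13 TPM to 0 in all adult samples. The relation of these markers to *Trps1* was not tested.

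*Foxc1* and *Foxc2* encode forkhead factors that are required for endochondral bone growth. *Foxc1*, on chromosome 13 from 31806633 to 31812476, was at 104, 88.9 and 105 TPM among embryonic samples and at 94.0, 104 and 70.0 TPM among adult ones. The log2 fold change was -0.16 with a 95% interval from -0.57 to 0.24 (limma adjusted p = 0.474), so a change beyond 0.57 in either direction lay outside the interval. *Foxc2*, on chromosome 8 from 121116171 to 121118895, was at 14.6, 16.4 and 28.0 TPM and at 24.6, 31.7 and 19.3 TPM. Its log2 fold change was 0.37 with a 95% interval from -0.33 to 1.07 (limma adjusted p = 0.356). The samples of the stages overlapped for both genes.

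*Nfatc1*, on chromosome 18, was at 166, 158 and 166 TPM among embryonic samples and at 72.2, 81.5 and 78.1 TPM among adult ones. It was tightly grouped at either stage and 2.11-fold lower in the adult mean (log2 fold change -1.07 with a standard error of 0.126, adjusted p in limma = 2.41e-04). The summed TPM of the 8 leukocyte and osteoclast markers went the other way, from 6.86 to 16.0 in the embryonic samples to 38.1 to 83.0 among adult ones. Of the 3 tested, 2 were higher and 0 lower in limma, and *Lyz2* was not called (limma adjusted p = 0.0642). Not every marker rose. *Csf1r* averaged 0.684 TPM in the embryonic and 0.523 TPM in the adult samples, and *Ocstamp* 0.579 and 0.535 TPM, and neither was tested. *Acp5*, the osteoclast phosphatase TRAP, rose from 0.740 to 2.49 TPM in the embryonic samples to 14.9 to 18.9 TPM in the adult samples (log2 fold change 2.91, limma adjusted p = 5.2e-04). *Cd68*, a macrophage and osteoclast marker, rose by 1.73 (limma adjusted p = 0.00967). *Dcstamp*, which osteoclasts need to fuse, was listed at 0 in all 6 samples. The part of leukocytes and osteoclasts in the level of *Nfatc1* was not tested. A 0 in this matrix need not mean an absent transcript, because over all genes 6 values of 0 stood beside 2 samples of the same stage at 20 TPM or more.

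**Figure D2:**
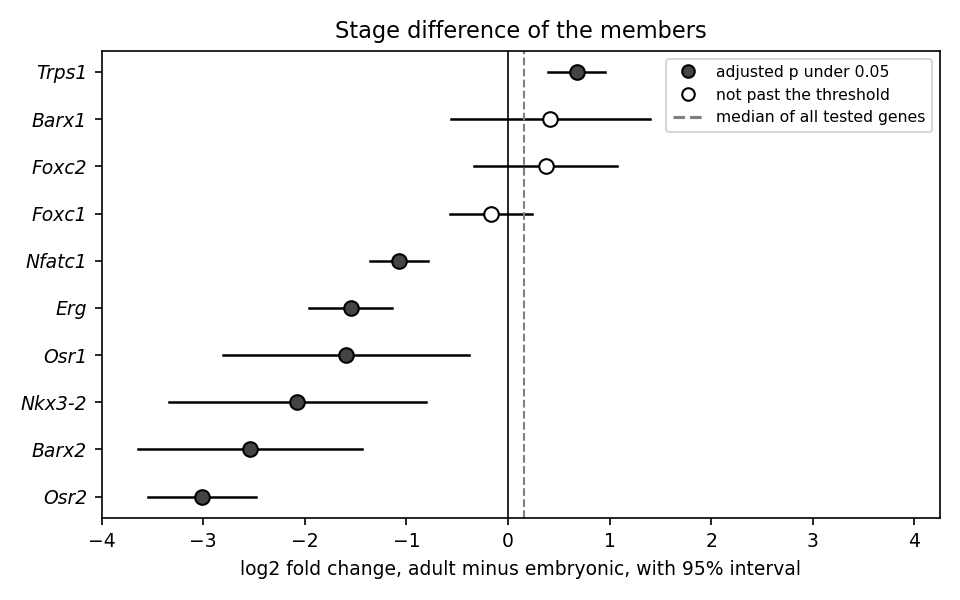
Log2 fold change of each member (x axis, adult minus embryonic, 3 samples a stage), with its 95% interval from limma as a line, filled points for an adjusted p under 0.05 and a dashed line at the median of all tested genes, 0.16. The intervals of *Barx1*, *Foxc1* and *Foxc2* cross 0, and *Osr2* has the lowest estimate.

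Whether the members of a pair changed unequally was asked within each sample, as the difference in log2(TPM + 1) between the paralogs. *Osr2* exceeded *Osr1* by 3.22, 3.09 and 2.61 in the embryonic samples and by 0.91, 1.16 and 2.59 in the adult samples. The difference was smaller in all adult samples, although adult replicate 3 lay just below embryonic replicate 3. The mean change was -1.42, and without adult replicate 3 it was -1.94. *Barx2* was below *Barx1* in all samples, by a difference of -1.99, -2.86 and -1.0 in the embryonic and -5.46, -4.86 and -4.40 in the adult samples, a change of -2.96 with no overlap, which was -4.60 with a pseudocount of 0.1. For *Foxc2* and *Foxc1* the change was 0.53 with overlapping samples. In an exact two-sided permutation test over the 6 samples, p was 0.1 for the *Osr* and *Barx* pairs, the smallest that 3 against 3 samples allow, and 0.2 for the *Foxc* pair. Adjusted over the 3 pairs the exact p-values were 0.15, 0.15 and 0.2, so this design cannot pass the threshold.

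**Figure D3:**
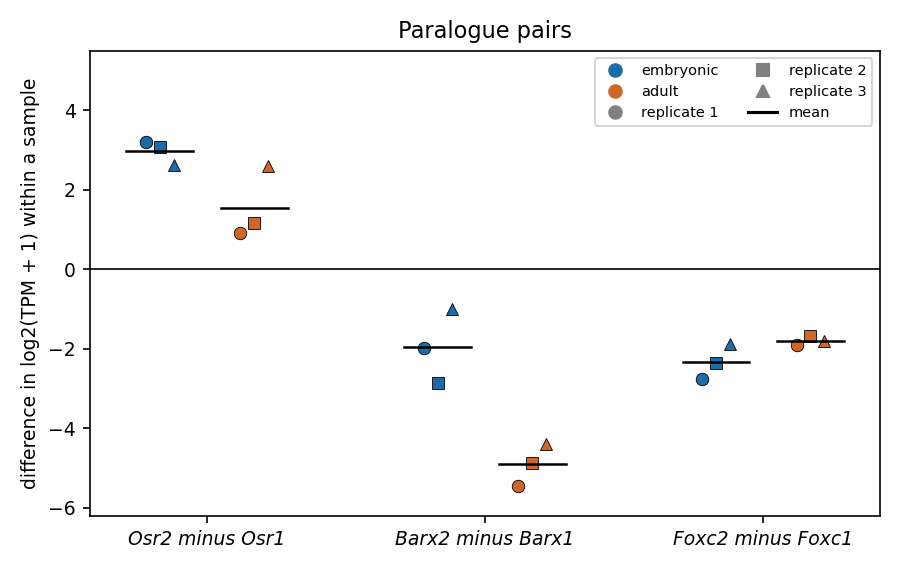
Difference in log2(TPM + 1) between paralogs within a sample (y axis) for 3 pairs, with embryonic samples in blue, adult samples in orange, the marker shape for the replicate and a bar for the mean. The adult points of the *Barx* pair lie between -5.46 and -4.40, below all embryonic points.

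Promoter sequences from RefSeq (GRCm38.p6), 250 bases before to 50 after the start, were matched for 4 of the members, *Nkx3-2*, *Foxc1*, *Barx1* and *Erg*. The chromosome of *Nfatc1* was left out of this match. Those of *Nkx3-2* and of the most upstream start of *Erg* are shown because both genes fell. Capitals mark matches on either strand to the core of NFAT sites, spelled GGAAA, or to a GATA site.
Nkx3-2: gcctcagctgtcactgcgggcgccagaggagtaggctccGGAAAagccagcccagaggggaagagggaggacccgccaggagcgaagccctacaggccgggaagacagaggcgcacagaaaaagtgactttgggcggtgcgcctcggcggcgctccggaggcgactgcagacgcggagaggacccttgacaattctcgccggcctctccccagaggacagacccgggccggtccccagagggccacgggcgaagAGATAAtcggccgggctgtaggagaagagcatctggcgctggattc
Erg: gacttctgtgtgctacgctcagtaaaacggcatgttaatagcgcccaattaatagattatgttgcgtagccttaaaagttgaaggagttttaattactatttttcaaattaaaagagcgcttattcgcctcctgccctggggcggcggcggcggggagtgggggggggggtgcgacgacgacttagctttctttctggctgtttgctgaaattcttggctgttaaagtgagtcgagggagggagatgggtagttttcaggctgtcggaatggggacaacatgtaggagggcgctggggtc
The *Nkx3-2* window lies at chr5:41764171-41764470 on the minus strand and held 1 match to each motif, and the *Erg* window lies at chr16:95586544-95586843 on the minus strand and held none. The other *Erg* starts gave windows with matches, not printed here. The window at chr16:95530316-95530615 held 2 NFAT cores and 1 TATA box, and that at chr16:95459299-95459598 held 1 NFAT core and 1 GATA site. *Foxc1*, which did not pass the test between stages, held 2 NFAT cores in its window, and *Barx1*, which did not pass either, held no match. Of the 32851 promoter windows 61.3% held the NFAT core. The GATA site was searched as AGATAA and was held by 11.2% of them. A SOX site, searched as ACAAAG, was held by 18.7% of windows. A forkhead site, searched as GTAAACA, was held by 3.65%. The TATA box, searched as TATAAA, was held by 13.6%. Neither printed window held any of these last 3. The G and C content was 66.7% in the *Nkx3-2* window and 50.3% in the *Erg* window, against a median of 52.7% over all windows. *Erg* has 8 annotated transcripts, and the gene level in the matrix does not show which start was used.

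The other genes of joint formation were described from a fixed list of 12. In limma 7 were lower and 1 was higher, and the list's median log2 fold change was -1.40. Of all tested genes 45.3% were called, 21.4% as lower. Among the 7, *Tgfbr2* passed narrowly (limma adjusted p = 0.0497) and was called in only 4 of 16 alternative settings. *Sfrp2*, a secreted WNT modulator, fell by 4.64 (limma adjusted p = 0.00144), *Nog*, the BMP antagonist noggin, by 2.72 (adjusted p = 0.00532) and *Gdf5*, the ligand that marks the interzone, by 2.68 (adjusted p = 9.03e-04). *Gdf5* was at 26.9, 26.0 and 25.2 TPM among embryonic samples and at 1.39, 5.11 and 4.20 TPM among adult ones. *Enpp2*, which encodes the enzyme autotaxin, rose by 1.49 (adjusted p = 3.15e-04).

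Of 15 factors of chondrocyte fate, 6 were higher and 2 lower in limma, and the list's median was 0.09. These 8 of 15 lie near the 45.3% called among all tested genes. *Zbtb20*, a zinc finger factor of hypertrophic chondrocytes, rose by 3.91 (limma adjusted p = 1.6e-06), from 11.7 to 16.9 TPM in the embryonic samples to 201 to 259 TPM among adult ones. The homeobox gene *Dlx5* rose by 2.94 and the forkhead gene *Foxa3* by 1.59 (limma adjusted p = 1.81e-04 and 0.0108). *Pax1*, which with PAX9 activates *Nkx3-2* in the somite, fell by 2.02, and *Sox6*, a partner of SOX9, fell by 0.93 (limma adjusted p = 0.00568 and 0.00687). The value of *Runx2*, the gene that NKX3-2 represses, was 0.72 lower on the log2 scale with an adjusted p of 0.0659.

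In the NFAT and calcineurin list of 10 genes, 4 were lower and 1 was higher in limma, with a median of -0.49. These 5 of 10 lie near the 45.3% called among all tested genes. *Nfatc2*, a paralog of *Nfatc1* known from cartilage, fell by 4.23, from 152, 134 and 151 TPM to 10.2, 6.81 and 4.36 TPM (limma adjusted p = 9.83e-06). *Rcan1*, a calcineurin regulator that NFAT itself activates, fell by 1.52 and *Nfatc4* by 1.51 (limma adjusted p = 4.73e-05 and 0.0041). *Ppp3ca*, the catalytic subunit of calcineurin, rose by 1.54 (limma adjusted p = 7.63e-05).

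Of 16 other transcription factors related to the members by family, 13 were tested, 7 were lower and 1 was higher in limma, and the median was -0.98. Over all tested genes 45.3% were called, 21.4% as lower. Among the 7, *Gata6* (limma adjusted p = 0.0405) was called in only 7 of the 15 alternative settings that tested it. *Fli1*, the ETS factor closest to *Erg*, fell by 1.54 (limma adjusted p = 0.00374) and the forkhead gene *Foxp2* by 2.16 (adjusted p = 1.85e-04). *Foxd1*, a forkhead gene known from kidney stroma, rose by 3.46 (limma adjusted p = 2.59e-04). *Gata3*, of the GATA family to which TRPS1 belongs, fell by 1.77 (limma adjusted p = 0.0254). That call did not hold without embryonic replicate 1, adult replicate 1 or adult replicate 2 (limma adjusted p = 0.064, 0.0587 and 0.0575).

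**Figure D4:**
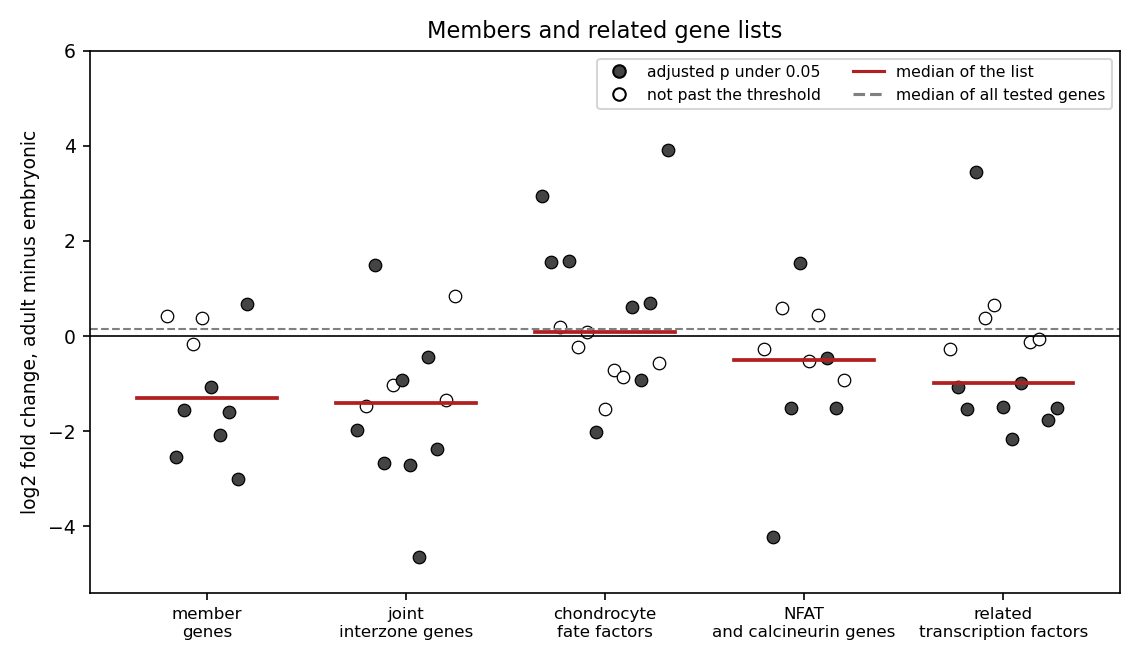
Log2 fold change (y axis, adult minus embryonic) of each tested gene of the members and of 4 related lists, with filled points for an adjusted p under 0.05, a red bar for the list's median and a dashed line at the median of all tested genes, 0.16. The median of the joint interzone list, -1.40, lies near that of the members, -1.31, and that of the chondrocyte fate factors, 0.09, lies near the dashed line.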

How the data were processed

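Reads were aligned to GRCm38 by the authors, who estimated transcript levels with RSEM (version not given in the sources used here) and deposited log2(TPM + 1) per gene. All 6 columns were used. The read depth is lost in TPM, and how precise a level is can be judged only from the spread of 3 samples a stage. Of the identifiers 21902 had a symbol in GENCODE M21 and 130 had none.

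Stages were compared with limma 3.58.1 (R 4.3.3), using lmFit and a trended eBayes, over all genes averaging 1 TPM or more and a pseudocount of 1, with no covariate. EBSeq, which the methods name, models counts and was not used here. Tested on simulated data for 13125 genes, 73.6% of 106 genes changed by 2 and 27.7% of 94 changed by 1 on the log2 scale were called. Only these genes were changed, and none had a level as low as *Barx2* or *Nkx3-2*. In the data 45.3% of tested genes were called, so these rates need not hold there. Paralog differences were tested with scipy 1.17.1. The labels and the methods name different library kits, and the methods name RefSeq annotations where the matrix holds Ensembl identifiers, so the read sharing counted over GENCODE transcripts may differ from that in the authors' annotation. No source used here states that strand was kept, so reads of overlapping genes cannot be told apart.

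The members and gene lists were chosen with earlier results of these data known. Genes named are all members, the chondrocyte markers, *Bmpr1b*, and from each list up to 3 with the largest change in each direction past the threshold whose stages do not overlap. *Runx2*, *Tgfbr2*, *Gata6* and the markers of other cells were named after their values were seen. Results were recomputed with a pseudocount of 0.1, no filter on level or only genes averaging 5 TPM or more, scaling by quantiles, by the median of ratios, or after dropping the 20 highest genes, eBayes untrended and eBayes robust, a replicate block, a threshold of 0.01, and each sample omitted in turn.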

Additional observations from a re-analysis of the deposited data

How the results depend on the processing

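Over 16 alternatives, *Osr2*, *Erg*, *Nfatc1* and *Trps1* kept their direction and their call in all 16, and *Barx2* in the 15 that tested it. *Nkx3-2* was called in 12 of 15 and *Osr1* in 7 of 16. A minimum mean of 5 TPM left *Barx2* and *Nkx3-2* untested. *Osr1* lost its call with a pseudocount of 0.1, with no filter and without the trend (limma adjusted p = 0.053, 0.072 and 0.0557), beside the samples named above, and *Osr1* and *Nkx3-2* did not pass a threshold of 0.01. No member reversed, and *Barx1* was called only without adult replicate 3. The count of members called was 5 to 7 with each sample left out. An adjusted p under 0.01 left 3718 of all genes and 5 of the chondrocyte fate factors, which its stricter threshold explains. The median log2 fold change of all genes, 0.16, became 0.02 under median-of-ratios scaling and 0.25 when the 20 highest genes were dropped, and that of the members -1.45 and -1.22. Samples with the same replicate number did not deviate together (correlation across genes -0.02 to -0.01), and with the replicate block 7 members and 5430 of all genes were called. With a pseudocount of 0.1 the log2 fold change was -4.18 for *Barx2* and -3.79 for *Nkx3-2*. The paralog changes kept their direction with a pseudocount of 0.1, with quantile normalization and with each sample left out, where the exact p of the *Osr* pair was 0.3 with the pseudocount of 0.1. The low levels of *Nkx3-2*, *Barx2* and *Osr1* limit how firmly their change can be sized.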

Other observations

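The adult samples were not alike in these genes. Adult replicate 3 held the lowest adult value in 6 of the 10 members, adult replicate 1 in 4 and adult replicate 2 in 0. Over the tested genes with a unique lowest adult value, the shares were 33.5%, 36.0% and 30.4% in the same order. In *Barx1*, at 48.0 ± 25.4 TPM (SD, n = 3) in the adult samples, adult replicate 3 was at 20.1 TPM. On the log2(TPM + 1) scale the SD of the adult samples was 0.92 for *Barx1* and 1.05 for *Osr1*.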
